A study of Homo sapiens with 6 samples.

Results

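The genes described here encode the small subunit processome and the later assembly factors of the 40S ribosomal subunit. The set of 56 genes was chosen by name from what is known of their function, with earlier results of these data known. Of the 56 genes, 55 have a row in the deposited table of 18398 genes, and PWP2 is not analysed here. All 55 passed the filter on low counts. Their mRNA was sequenced in SUM159, a human cell line derived from a triple-negative breast tumour and mesenchymal in character. The study made 3 libraries of stable POGK-overexpressing cells that carry POGK in the pLVX vector, called POGK cells, and 3 libraries of cells with pLVX alone, called control cells. The POGK protein carries a KRAB domain and derives from a pogo-like transposon, and the study asked which genes it regulates. Both groups were grown in Ham's F12 medium with serum, insulin and hydrocortisone. The labels give no clone, passage or transduction detail. Since they also leave unsaid whether replicates are separate cultures, each p-value reflects the spread among these libraries alone, which may be technical.

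A ribosome begins as a long RNA precursor that RNA polymerase I makes in the nucleolus. The small subunit processome, a large particle of proteins and the U3 small nucleolar RNA, forms on this precursor as it emerges, folds the future 18S rRNA and guides the first cuts. Helicases and modifying enzymes then remodel the particle, and a smaller group of factors escorts it through the nuclear pore and through the last cut of the 18S rRNA in the cytoplasm. These proteins are needed in proportion to ribosome output and are known to be highly expressed in proliferating cells.

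Library totals ran from 27645789 to 33689230 counts. POGK itself had 742, 781 and 780 CPM (each count as a share of its library's TMM-adjusted total, on the usual CPM scale) in POGK cells and 62.6, 77.3 and 66.9 CPM in control cells, so the targeted gene was higher in every library labelled POGK. The control libraries stood further apart from each other than the POGK libraries did: a chi-square statistic per gene was 22.5 to 49.7 between control libraries and 1.36 to 2.62 between POGK libraries. The 5 markers of the SUM159 mesenchymal state that were looked up were all expressed, with summed levels of 5166 to 5229 CPM in POGK cells and 7046 to 8608 CPM in control cells. They did not move together: by edgeR VIM and CD44 were lower, and CAV1, AXL and CDH2 higher, with VIM at 3344 CPM in POGK cells and 5960 CPM in control cells. Of 5 luminal genes, 3 were in the table. ESR1 averaged 0.12 CPM in POGK cells and 0.21 CPM in control cells and was not tested, ERBB4 averaged 0.13 CPM in POGK cells and 1.81 CPM in control cells, and GATA3 averaged 4.38 CPM in POGK cells and 8.60 CPM in control cells. By edgeR ERBB4 and GATA3 were lower. Markers of other cells were low. Of 5 leukocyte markers, 2 were in the table, with summed levels of 1.79 to 2.46 CPM in POGK cells and 1.21 to 1.88 CPM in control cells. Of 5 endothelial markers, 3 were in the table and summed to 4.56 to 5.03 CPM in POGK cells and 5.39 to 7.48 CPM in control cells, and the 3 of 5 adipocyte markers in the table summed to 2.43 to 2.93 CPM in POGK cells and 3.25 to 5.07 CPM in control cells.

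The mRNAs of the small-subunit assembly factors were mostly higher in POGK cells. By edgeR's quasi-likelihood test, with adjusted p-values taken over all 15889 genes tested and a call at an adjusted p below 0.05, 44 of the 55 were higher, 4 were lower and 7 did not pass. Of all genes tested, 32.7% were called higher, 33.3% lower and 66% in either direction. The same shares are the background for the counts by role given below. The median log2 fold change of POGK over control was 0.65 over the 55 genes, with quartiles at 0.36 and 1.04, against 0.002 over all genes tested. Changes of at least 2-fold were called for 15 of the 55 genes upward and for 1 downward, where 9.58% and 12.7% of all genes tested passed those limits. In 46 of the 55 genes every POGK library lay above every control library, in 5 every POGK library lay below, and in 4 the groups overlapped. For all genes tested those shares were 36.8% above and 36.8% below. With library size alone as scaling, the median of all genes tested moved to 0.19, and 62.6% of all calls were higher in place of 49.6%. On that scale 46 of the 55 genes were higher and 2 lower, where 41.4% of all genes tested were higher and 24.7% lower. Every direction given below holds on the TMM scale. In bulk RNA, fewer cells of a type and less RNA per cell cannot be told apart.

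**Figure D1:**
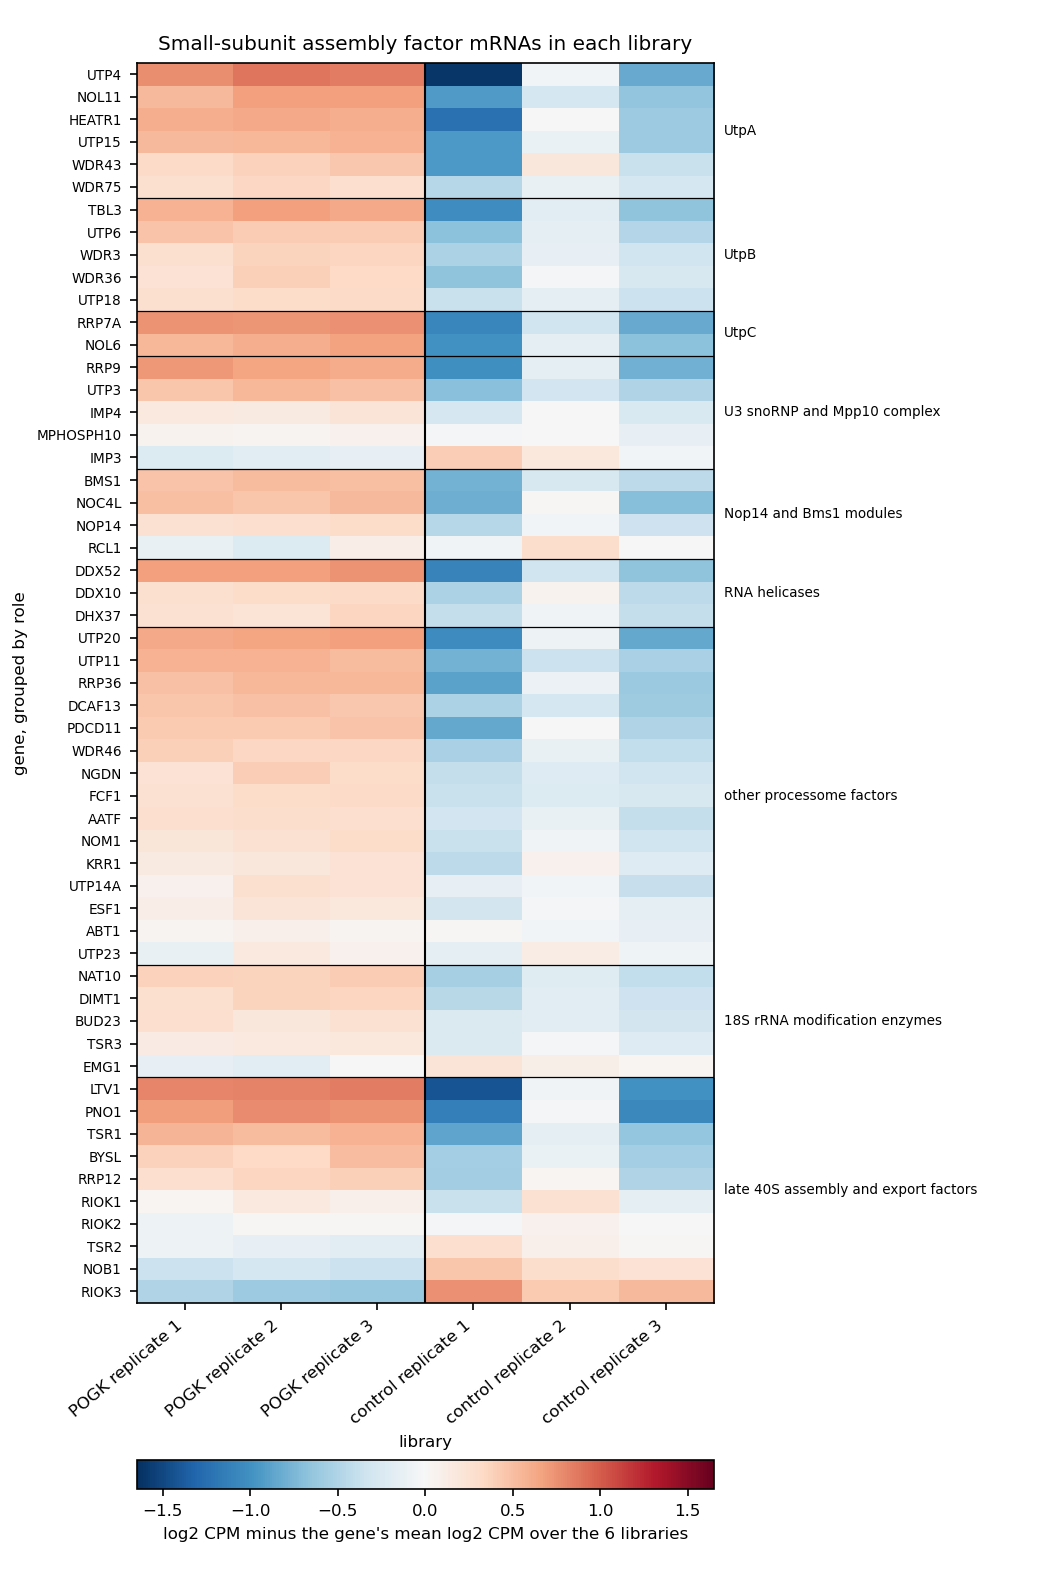
Level of each small-subunit assembly factor mRNA in each library, as log2 CPM minus the gene's mean over the 6 libraries, with the 55 genes grouped by role on the vertical axis and POGK libraries left of control libraries. Most rows are red in the 3 POGK libraries and blue in the control libraries, with control replicate 2 palest. RIOK3, NOB1, TSR2, IMP3 and EMG1 run the other way, and of these EMG1 was not called.

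UtpA is the first complex to bind the emerging precursor, at its 5′ end, and in human cells its subunits are also needed for transcription of the ribosomal DNA. All 6 of its genes rose, with a median log2 fold change of 1.09. UTP4, a WD-repeat subunit also called cirhin (ENSG00000141076; hg38 chromosome 16, 69131291 to 69231130, plus strand), had 73.5, 79.6 and 77.1 CPM in POGK cells and 14.1, 41.7 and 24.1 CPM in control cells. The POGK libraries were close together, whereas control replicate 2 was far above control replicate 1, and the groups did not overlap. Its log2 fold change was 1.52 (standard error, SE, 0.31; edgeR adjusted p 0.00286). NOL11, another UtpA subunit (ENSG00000130935; chromosome 17, 67717931 to 67744531, plus strand), had 99.8, 110.3 and 110.3 CPM in POGK cells and 36.2, 56.6 and 44 CPM in control cells. All POGK values were above all control values, and the log2 fold change was 1.23 (SE 0.14, edgeR adjusted p 1.02e-04). HEATR1, a very large helical-repeat scaffold of the complex, UTP15 and WDR75 had log2 fold changes of 1.12, 1.06 and 0.58. WDR43, with 0.68, lost its call when any POGK library or control replicate 3 was left out, at edgeR adjusted p-values from 0.0634 to 0.103, and with length and GC trends removed, at 0.0504, or 0.055 with the replicate block. LGALS8, like the other overlapping genes given here named only for its overlap, covers 23.1% of the exon bases of HEATR1 and averaged 85.5 CPM in POGK cells and 140 CPM in control cells.

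UtpB is a second scaffold complex, made largely of WD-repeat proteins, that joins next to UtpA. Its 5 genes in the table all rose, with log2 fold changes from 0.58 for UTP18 to 1.21 for TBL3. TBL3 (ENSG00000183751; chromosome 16, 1972053 to 1982929, plus strand) averaged 50.2 ± 1.90 CPM in POGK cells and 21.7 ± 6.33 CPM in control cells (SD, n = 3 each), with an edgeR adjusted p of 3.54e-04. UTP18 (ENSG00000011260; chromosome 17, 51260546 to 51297936, plus strand) had 108.4, 110.6 and 111.5 CPM in POGK cells and 69.9, 80.3 and 70.3 CPM in control cells. Both groups were tight for this gene, and its smaller log2 fold change of 0.58 came with a standard error of 0.07 and an edgeR adjusted p of 1.62e-04. UTP6, WDR3 and WDR36 lay between, at 0.86, 0.65 and 0.62. In UtpC, a small module of the processome, both genes rose. RRP7A (ENSG00000189306; chromosome 22, 42508344 to 42519796, minus strand) had 48.3, 47.8 and 48.7 CPM in POGK cells and 13.7, 23.0 and 16.2 CPM in control cells. Its log2 fold change was 1.45 (SE 0.16, edgeR adjusted p 8.92e-05), and that of NOL6 was 1.17.

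The U3 RNA pairs with the precursor, helped by the U3-specific protein RRP9 and by a complex of MPHOSPH10, IMP3 and IMP4. In this group 3 of 5 genes rose, 1 fell and 1 did not pass, where 32.7% of all genes tested rose and 33.3% fell. RRP9 (ENSG00000114767; chromosome 3, 51933429 to 51941904, minus strand) had 27.4, 26.1 and 25.4 CPM in POGK cells and 8.25, 14.9 and 9.60 CPM in control cells. It rose with a log2 fold change of 1.26 (SE 0.19, edgeR adjusted p 4.39e-04). UTP3, counterpart of yeast Sas10 (ENSG00000132467; chromosome 4, 70688532 to 70690551, plus strand), averaged 57.6 ± 1.75 CPM in POGK cells and 29.0 ± 3.76 CPM in control cells (SD, n = 3 each), at an edgeR adjusted p of 4.76e-05. IMP4 rose with 0.34. MPHOSPH10 (ENSG00000124383; chromosome 2, 71130310 to 71150101, plus strand) had 53.4, 53.1 and 53.9 CPM in POGK cells and 50.3, 51.7 and 46.7 CPM in control cells. The groups differed by little, and the log2 fold change of 0.11 (SE 0.07, edgeR adjusted p 0.194) missed the threshold. With library size alone it was 0.30 and passed.

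IMP3 (ENSG00000177971; chromosome 15, 75639085 to 75648706, minus strand) was lower, with 32.9, 34.1 and 35.2 CPM in POGK cells and 51.2, 43.5 and 37.4 CPM in control cells. The nearest libraries of the groups were close, and the log2 fold change was -0.37 (SE 0.11, edgeR adjusted p 0.0171). The call was lost with library size alone, at -0.17, and without POGK replicate 1 or 2, at edgeR adjusted p-values of 0.0663 and 0.0549. SNX33 overlaps 31.7% of the IMP3 exon bases on the other strand and fell further, to 58.0 ± 2.84 CPM in POGK cells, against 243 ± 53.6 CPM in control cells (SD, n = 3 each). The strand setting of the counting is not given in the sources used here, so reads of the pair cannot be told apart.

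BMS1 is the GTPase of the processome, RCL1 its binding partner, and NOP14 and NOC4L form a neighbouring module on the 18S region. BMS1 (ENSG00000165733; chromosome 10, 42782795 to 42834937, plus strand) had 129.2, 133.2 and 130.7 CPM in POGK cells and 54.1, 77.4 and 69.0 CPM in control cells. Its log2 fold change was 0.97 (SE 0.12, edgeR adjusted p 1.23e-04). The human genome has 19 annotated pseudogenes named for BMS1, so some of its reads may be split. NOC4L and NOP14 rose with 0.94 and 0.55. RCL1 (ENSG00000120158; chromosome 9, 4792944 to 4885917, plus strand) had 9.67, 8.98 and 11.4 CPM in POGK cells and 10.1, 12.9 and 10.6 CPM in control cells, and the groups overlapped. Its log2 fold change was -0.17 (SE 0.14, edgeR adjusted p 0.313). In POGK cells RCL1 also had the lowest level per exon length of the 55 genes, at 2.42 CPM per kilobase. In control cells UTP20 was lower, at 2.425 CPM per kilobase against 2.706 for RCL1.

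All 3 RNA helicases rose. DDX52, counterpart of the yeast helicase Rok1 (ENSG00000278053; chromosome 17, 37609739 to 37643446, minus strand), had 92.1, 92.2 and 96.6 CPM in POGK cells and 26.7, 45.8 and 36.2 CPM in control cells. Every POGK library was far above the highest control library, and the log2 fold change was 1.37 (SE 0.16, edgeR adjusted p 1.28e-04). DHX37, which in yeast frees the U3 RNA from the precursor, and DDX10 rose with 0.54 and 0.56.

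Of the other 15 processome factors, 13 rose and 2 did not pass. UTP20, a very long helical-repeat protein (ENSG00000120800; chromosome 12, 101280105 to 101386618, plus strand), had 56.6, 57.7 and 58.8 CPM in POGK cells and 17.8, 34.7 and 20.4 CPM in control cells. It had the largest log2 fold change here, 1.24 (SE 0.21, edgeR adjusted p 0.00104). DCAF13, counterpart of yeast Sof1 (ENSG00000164934; chromosome 8, 103414714 to 103443453, plus strand), averaged 110.4 ± 1.66 CPM in POGK cells and 58.3 ± 6.53 CPM in control cells (SD, n = 3 each) at an edgeR adjusted p of 3.28e-05. UTP11 and RRP36 also rose at least 2-fold, with 1.10 and 1.02. PDCD11, the counterpart of yeast Rrp5, which acts in both subunits' pathways, rose by less than 2-fold, with 0.85. WDR46, NGDN, the PIN-domain protein FCF1, AATF, NOM1, KRR1, UTP14A and ESF1 followed, with log2 fold changes from 0.70 for WDR46 to 0.33 for ESF1. KRR1 lost its call without POGK replicate 2 or 3 or control replicate 3, at edgeR adjusted p-values from 0.0515 to 0.07. With length and GC trends removed, KRR1 and ESF1 missed the threshold, at 0.0704 and 0.076.

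UTP23 (ENSG00000147679; chromosome 8, 116766505 to 116849463, plus strand) and ABT1 (ENSG00000146109; chromosome 6, 26596953 to 26600739, plus strand) did not pass. UTP23, which in yeast is needed to release the snR30 RNA, had 22.3, 27.1 and 25.5 CPM in POGK cells and 21.6, 26.4 and 23.1 CPM in control cells. The groups overlapped, and the log2 fold change was 0.07 (SE 0.11, edgeR adjusted p 0.574). ABT1, counterpart of yeast Esf2, had 19.2, 19.6 and 19.1 CPM in POGK cells and 18.8, 18 and 16.8 CPM in control cells. The groups did not overlap, yet the log2 fold change was 0.11 (SE 0.09, edgeR adjusted p 0.294), and it passed with library size alone, at 0.31.

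**Figure D2:**
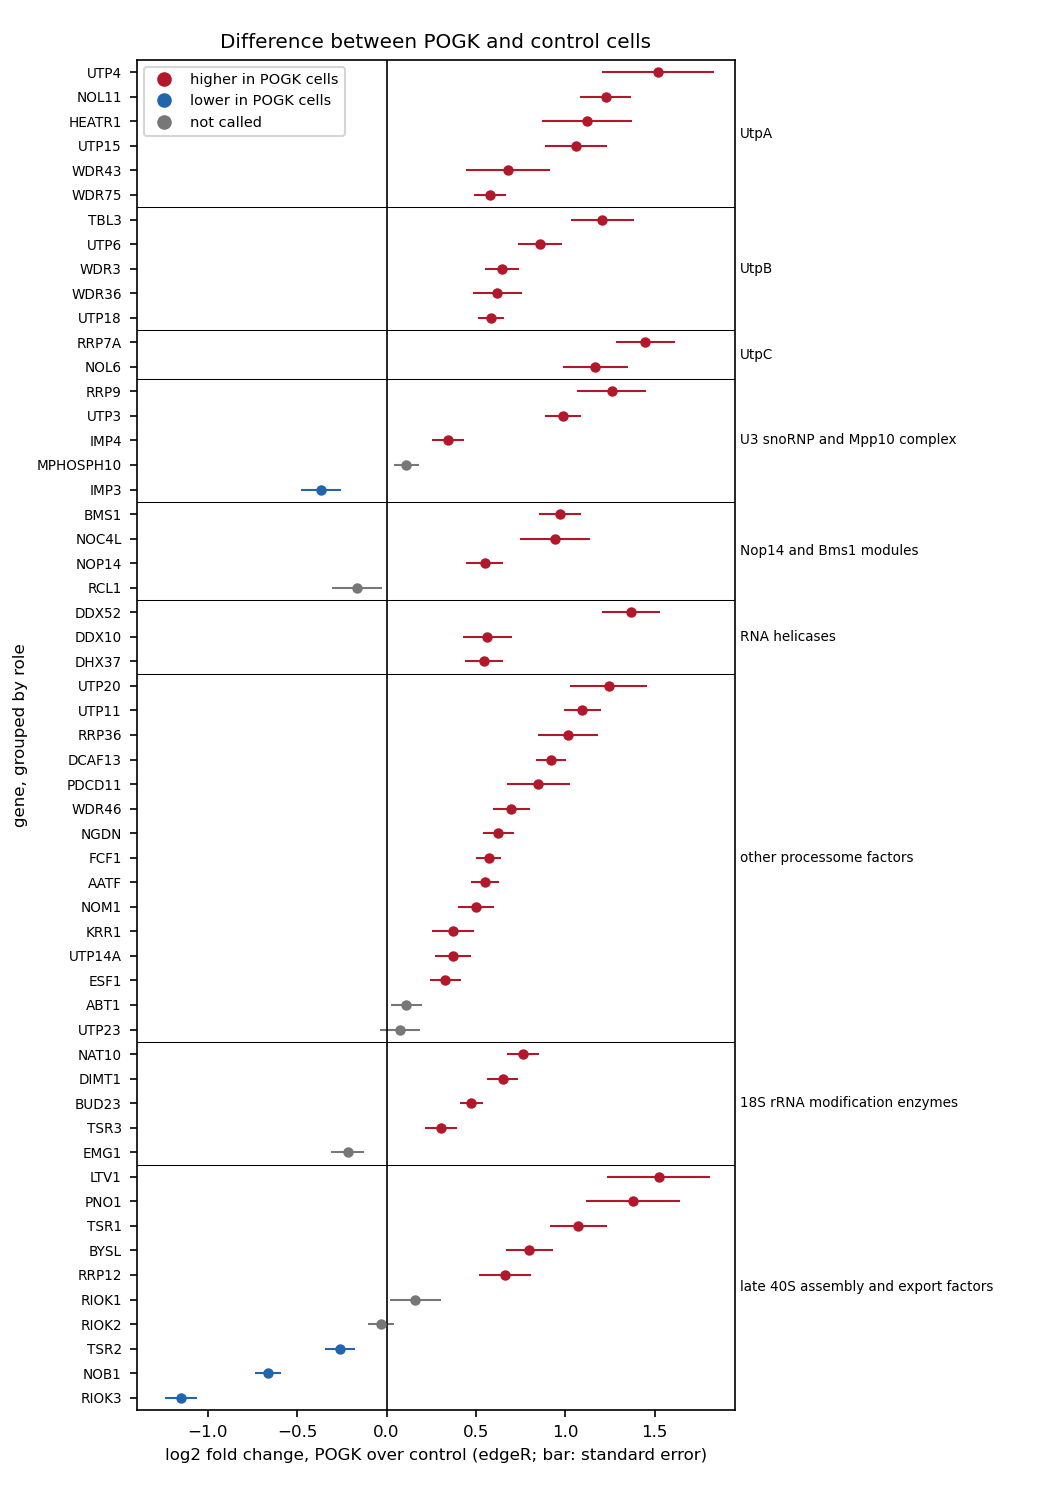
Log2 fold change of POGK over control for the 55 genes (horizontal axis, edgeR, bars are standard errors), grouped by role and coloured by call. UtpA, UtpB, UtpC and the helicases lie wholly to the right of 0, and the late factors run from -1.15 for RIOK3 to 1.52 for LTV1.

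Enzymes that modify the 18S rRNA rose in 4 of 5 cases, with smaller differences. NAT10, the RNA cytidine acetyltransferase (ENSG00000135372; chromosome 11, 34105617 to 34147670, plus strand), had 97.1, 96.3 and 99.8 CPM in POGK cells and 51.2, 64.9 and 56.7 CPM in control cells. Its log2 fold change was 0.76 (SE 0.09, edgeR adjusted p 1.08e-04). The dimethyltransferase DIMT1, the methyltransferase BUD23 and the aminocarboxypropyl transferase TSR3 rose with 0.65, 0.48 and 0.30, and TSR3 lost its call without POGK replicate 2 or 3, at edgeR adjusted p-values of 0.0608 and 0.0605. In POGK cells BUD23 had the highest level per exon length of the 55 genes, at 69.98 CPM per kilobase. In control cells NOB1 was higher, at 59.87 CPM per kilobase against 50.35 for BUD23. EMG1, which methylates a pseudouridine (ENSG00000126749; chromosome 12, 6970913 to 6979936, plus strand), had 21.1, 20.3 and 22.9 CPM in POGK cells and 26.6, 24.6 and 23.5 CPM in control cells. Every POGK library was below every control library, but the log2 fold change of -0.22 (SE 0.09, edgeR adjusted p 0.0614) missed the threshold. It passed without control replicate 3, at 0.0443, and with a filter of 1 CPM in 3 libraries, at 0.0446. LPCAT3 covers 55.5% of the EMG1 exon bases on the other strand and averaged 50.7 CPM in POGK cells and 42.6 CPM in control cells.

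The factors of late maturation and export divided: 5 of 10 rose, 3 fell and 2 did not pass. Over all genes tested 32.7% rose and 33.3% fell, so the share that fell, 30.0%, was near that background. Those that rose included PNO1, which in yeast shields the site that NOB1 cuts, LTV1, TSR1 and BYSL, which sit on the pre-40S particle, and RRP12, which takes part in export. LTV1 (ENSG00000135521; chromosome 6, 143843338 to 143863812, plus strand) had 32.82, 33.03 and 33.7 CPM in POGK cells and 6.96, 18.1 and 9.40 CPM in control cells. Control replicate 2 was well above the other control libraries but below every POGK library. The log2 fold change was 1.52 (SE 0.29, edgeR adjusted p 0.00192), and PNO1, TSR1, BYSL and RRP12 had 1.38, 1.07, 0.80 and 0.66.

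RIOK3, an atypical kinase found on late pre-40S particles (ENSG00000101782; chromosome 18, 23453287 to 23486603, plus strand), had 60.9, 56.6 and 55.9 CPM in POGK cells and 144.7, 116.1 and 124.4 CPM in control cells. No POGK library came near a control library. The log2 fold change was -1.15 (SE 0.09, edgeR adjusted p 1.58e-05, the smallest p of the 55 genes). NOB1, the endonuclease that makes the final cut of the 18S rRNA (ENSG00000141101; chromosome 16, 69741871 to 69754926, minus strand), had 78.2, 81.5 and 78.2 CPM in POGK cells and 137.2, 122.0 and 118.2 CPM in control cells. It fell with a log2 fold change of -0.66 (SE 0.07, edgeR adjusted p 8.52e-05). Both kept their calls under all alternatives run.

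TSR2, the chaperone that delivers RPS26 to the ribosome (ENSG00000158526; chromosome X, 54440404 to 54448032, plus strand), had 51.3, 49.3 and 48.2 CPM in POGK cells and 65.7, 57.4 and 55.1 CPM in control cells. The difference was small, with a log2 fold change of -0.26, a standard error of 0.08 and an edgeR adjusted p of 0.0211. The call was lost with library size alone, at -0.06, and without POGK replicate 1, 2 or 3, at edgeR adjusted p-values of 0.0507, 0.0798 and 0.0956. FGD1, which overlaps 27.1% of the TSR2 exon bases on the other strand, averaged 57.8 CPM in POGK cells and 43.5 CPM in control cells.

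The other RIO kinases did not pass. RIOK2, a kinase needed to free pre-40S particles of assembly factors (ENSG00000058729; chromosome 5, 97160867 to 97183247, minus strand), had 41.7, 45.0 and 44.7 CPM in POGK cells and 43.1, 46.6 and 44.4 CPM in control cells. These values overlapped, and the log2 fold change was -0.03 (SE 0.07, edgeR adjusted p 0.736). RIOK1, which acts in the cytoplasm at the last step (ENSG00000124784; chromosome 6, 7389793 to 7418037, plus strand), had 35.9, 39.1 and 37.0 CPM in POGK cells and 27.01, 41.6 and 31.3 CPM in control cells. Control replicate 2 alone was above the POGK libraries, and the log2 fold change was 0.16 (SE 0.14, edgeR adjusted p 0.341). Without that library it was 0.36 and passed at 0.00539. The log2 ratio of RIOK3 to RIOK1 in the same library was 0.63 ± 0.12 in POGK cells and 1.95 ± 0.47 in control cells (SD, n = 3 each; two-sided exact permutation p = 0.1, adjusted p = 0.1). That of RIOK3 to RIOK2 was 0.40 ± 0.13 in POGK cells and 1.51 ± 0.21 in control cells (SD, n = 3 each; two-sided exact permutation p = 0.1, adjusted p = 0.1). With 3 against 3 libraries 0.1 is the smallest p possible, and neither pair of groups overlapped. Both ratios were chosen with RIOK3 already known to be lower in these data. Their separation is therefore a description and adds no support to the fall of RIOK3.

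**Figure D3:**
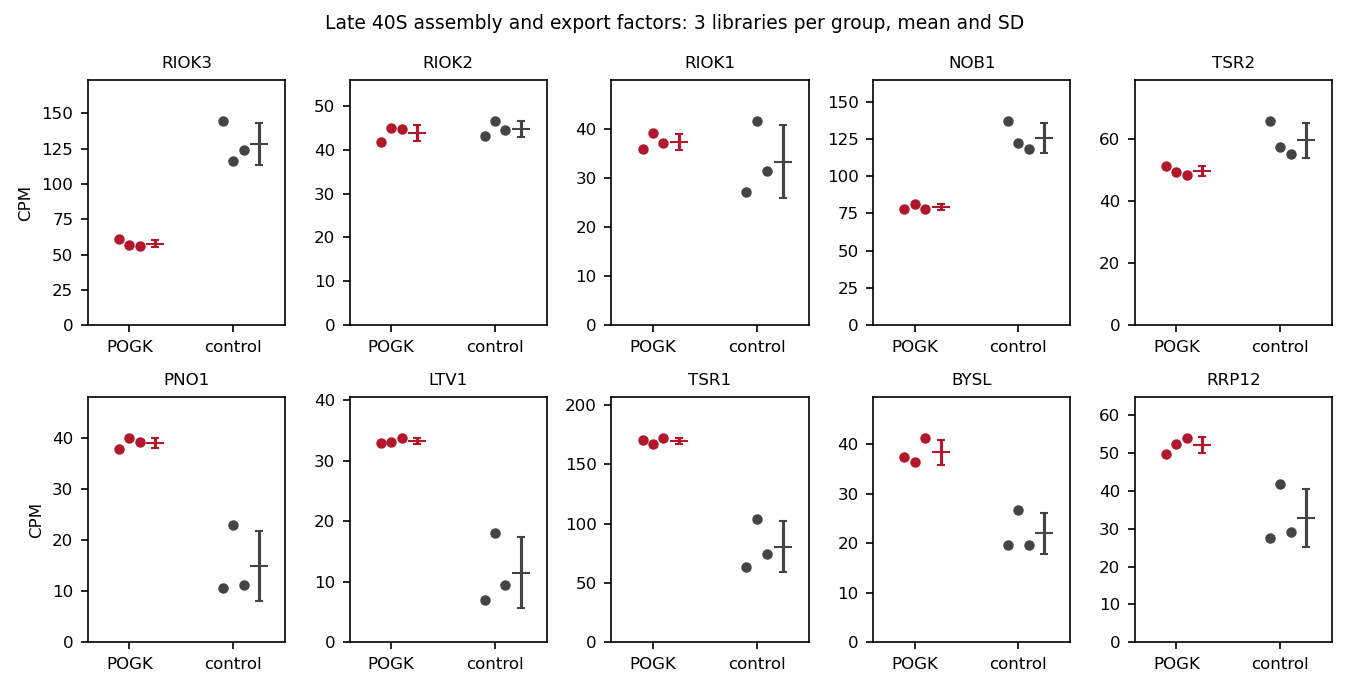
CPM of the 10 late assembly and export factors (vertical axes from 0), with 1 point per library, POGK left of control, and the mean with its SD beside each group. RIOK3, NOB1 and TSR2 are lower in POGK cells, RIOK2 and RIOK1 overlap, and the other 5 are higher with a wide control spread.

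The 55 genes differed among control libraries in a shared order. Control replicate 2 was the highest control library for 49 of the 55 genes and control replicate 1 the lowest for 43, where these shares were 36.1% and 38.5% over all genes tested. The median coefficient of variation was 14.6% among control libraries and 2.88% among POGK libraries, against 13.5% and 4.44% over all genes tested. It was widest for UtpA, at 34.2% in control cells, with UTP4, LTV1 and PNO1 the most variable genes at 52.3%, 50.9% and 46.3%. The difference between POGK cells and control replicate 3 was set beside that between control replicates 2 and 1, which shares no library with it. Across the 55 genes the correlation between these differences was 0.83 (Pearson) and 0.83 (Spearman), against 0.63 and 0.66 over all 15889 genes tested. This was not particular to them: among the 60S assembly factors control replicate 2 was the highest control library for 52 of 59 genes, and the Pearson correlation was 0.81. In the small-subunit ribosomal proteins control replicate 1 was the highest for 32 of 33 genes, with a Pearson correlation of 0.62. The chi-square statistic per gene was 49.7 between control replicates 1 and 2, 37.9 between 1 and 3, and 22.5 between 2 and 3. By that measure control replicate 1 stood furthest from the others. Genes are not independent replicates, and what set the control libraries apart was not tested. Without control replicate 2, 45 of the 55 genes were higher and 4 lower, where 34.9% of all genes tested were higher and 34.3% lower. Without control replicate 1, 44 were higher and 4 lower, where 31.4% of all genes tested were higher and 31.9% lower. The median log2 fold change of the 55 genes was 0.77 without control replicate 2 and 0.56 without control replicate 1.

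**Figure D4:**
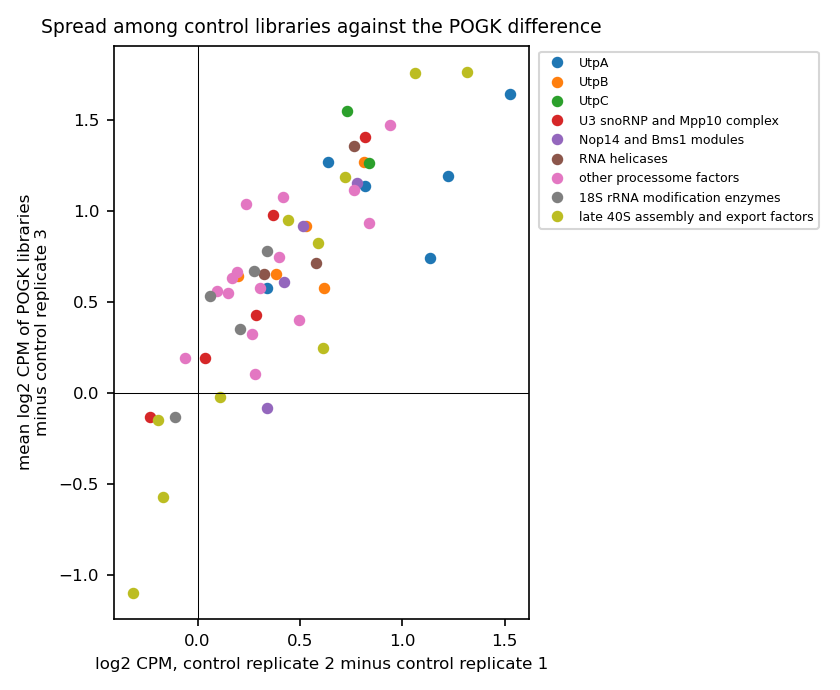
Each point is 1 of the 55 genes: the horizontal axis is control replicate 2 minus control replicate 1 (log2 CPM), the vertical axis the mean of the POGK libraries minus control replicate 3 (log2 CPM), coloured by role. The points rise together, with RIOK3 and NOB1 at the lower left and UTP4, LTV1 and PNO1 at the upper right.

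Other genes of the pathway were looked up from lists named by function. Of 10 further processome and partner genes, 5 were higher, 3 lower and 2 did not pass, where 32.7% of all genes tested were higher and 33.3% lower. With length and GC trends removed 3 of the 10 were higher, so the counts of this list lie near the background. DNTTIP2, a nucleolar processome component, averaged 99.6 ± 1.23 CPM in POGK cells and 51.0 ± 10.6 CPM in control cells, and CSNK1E, a casein kinase that acts on late pre-40S particles, averaged 108.1 ± 2.56 CPM in POGK cells and 147 ± 6.85 CPM in control cells (SD, n = 3 each). The lower count was 1 under several settings, among them DESeq2. Of 4 core proteins that U3 shares with other box C/D snoRNPs, 3 were higher and 1 did not pass, with log2 fold changes of 1.23 for NOP58 and 0.34 for SNU13. Of 5 U3 RNA genes, 2 were in the table, with summed levels of 0.17 to 0.30 CPM in POGK cells and 0.27 to 0.36 CPM in control cells, too low to be tested.

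The protein parts of the 40S subunit itself moved the other way. Of 33 small-subunit ribosomal protein genes, 31 were lower, 0 higher and 2 not called, around a median log2 fold change of -1.03. Of all genes tested 33.3% were lower and 32.7% higher. Leaving out any 1 library left the counts of lower and higher ribosomal protein genes at 31 and 0. RPS27 and RPS12 had the smallest edgeR adjusted p-values, with log2 fold changes of -1.41 and -1.31. The summed level of the ribosomal proteins was 5.28, 4.97 and 4.94 times that of the 55 assembly factors in POGK cells and 20.8, 13 and 15 times in control cells. These mRNAs share sequence with many pseudogenes, so single members are uncertain. The assembly factors of the 60S subunit resembled those of the 40S subunit. Of 59 such genes 47 were higher, 4 lower and 8 did not pass, where 32.7% of all genes tested were higher and 33.3% lower. The log2 fold changes of the 59 genes had a median of 0.71 and ran from -1.56 to 1.74. The 2 genes with the smallest edgeR adjusted p-values were GNL3L, at 1.46, and NOP53, an assembly factor that fell, at -1.56.

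**Figure D5:**
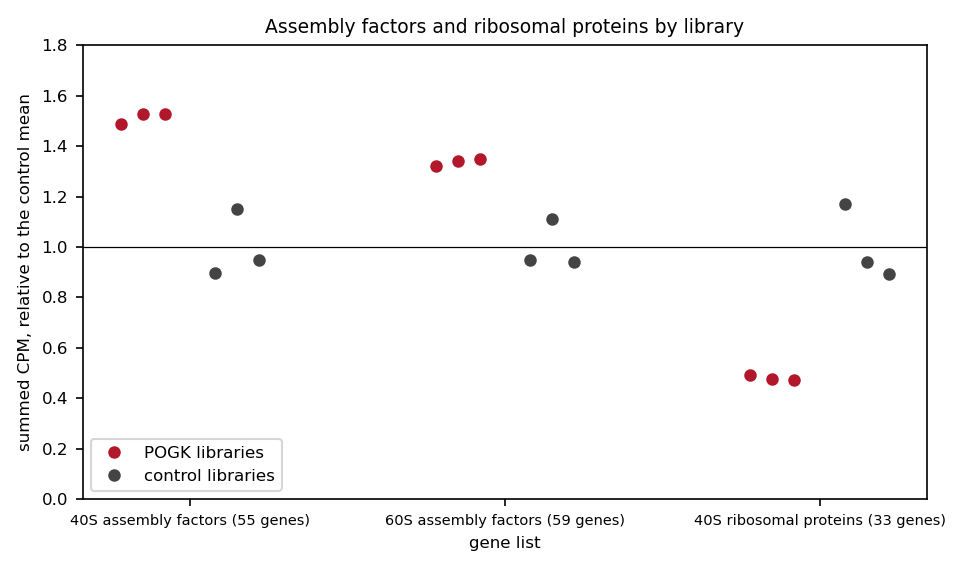
Summed CPM of 3 gene lists in each library, divided by the mean of the control libraries (vertical axis from 0; POGK libraries left of control libraries). The 55 small-subunit assembly factors lie at 1.49 to 1.53 in POGK cells and 0.90 to 1.15 in control cells, the 33 small-subunit ribosomal proteins at 0.47 to 0.49 in POGK cells and 0.89 to 1.17 in control cells.

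Because the assembly factors moved together, their promoters were read from RefSeq (GRCh38.p14, 250 bases before to 50 bases after each gene's start), which matched 49 of the 55 genes. The E-box CACGTG, a palindrome that is the same on both strands and is bound by basic helix-loop-helix factors such as MYC and USF, was in 20 of the 49 promoters, or 40.8%. It was in 9.81% of the 11897 promoters of genes in the count table, in 28.8% of 52 promoters of 60S assembly factors and in 3.85% of 26 promoters of small-subunit ribosomal proteins. The first 50 transcribed bases, a window chosen after the data were seen, held it in 12 of the 49 promoters, or 24.5%, against 1.12% of all 11897. In that window it was in 15.4% of the 60S assembly factor promoters and in 0 of the 26 of small-subunit ribosomal proteins. The 250 bases before the start held it in 8, or 16.3%, against 8.65%. Of the other motifs searched on both strands, CCGGAAG was in 40.8% of the 49 and 17.9% of all, GCATGCG in 8.16% and 6.12%, ATGGCGG in 18.4% and 9.52%, and CCAAT in 49.0% and 36.8%. CCGGAAG was also in 48.1% of the 60S assembly factor promoters and in 34.6% of those of small-subunit ribosomal proteins, whose mRNAs mostly fell. ATGGCGG was in 17.3% and 23.1% of these lists, and GCATGCG in 3.85% and 11.5%. The shares of CCGGAAG and ATGGCGG were therefore not particular to the small-subunit assembly factors. CCAAT was less frequent in both lists than in the 49, with 19.2% for the ribosomal proteins. No motif contains another, a promoter with several matches was counted once, and a match is a description of letters only.

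The following 30-base windows show the E-box, in capitals, in the 6 genes with an E-box that had the largest increases and in the 2 that did not rise, RCL1 and TSR2, on the strand of the gene and in RefSeq's build GRCh38.p14.
LTV1 (chr6:143843354-143843383, plus strand): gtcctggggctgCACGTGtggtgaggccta
UTP4 (chr16:69132621-69132650, plus strand): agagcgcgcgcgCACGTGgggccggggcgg
PNO1 (chr2:68157885-68157914, plus strand): ggtgcagctgcgCACGTGtttcagccggca
RRP9 (chr3:51941892-51941921, minus strand): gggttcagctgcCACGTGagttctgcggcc
UTP20 (chr12:101280083-101280112, plus strand): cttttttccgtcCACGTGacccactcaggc
NOL6 (chr9:33473894-33473923, minus strand): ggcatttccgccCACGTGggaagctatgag
RCL1 (chr9:4792936-4792965, plus strand): cctgttccaaacCACGTGgacgcgtctggg
TSR2 (chrX:54440389-54440418, plus strand): ccgccgggacgtCACGTGgactggggccgg
The first base of the E-box lay at position 29 of the transcript in LTV1, 10 in PNO1, 14 in NOL6 and 5 in RCL1, and 16, 5, 10 and 3 bases before the start in UTP4, RRP9, UTP20 and TSR2.

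Genes with and without the E-box had close median differences between POGK and control cells. The 20 genes with one had a median log2 fold change of 0.63, with 18 higher, 1 lower and 1 not passing. The 29 without one had a median of 0.65, with 22 higher, 3 lower and 4 not passing. Over all genes tested, 38.2% of 1098 with an E-box and 34.6% of 9977 without one were higher. RIOK3, NOB1 and IMP3, which fell, and NOL11, HEATR1 and RRP7A, which rose, had none in the window.

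The 3 RIO kinases are paralogs of which RIOK3 fell and RIOK1 and RIOK2 did not pass, and their promoter windows have no E-box. The 100 bases before each start are shown with CCGGAAG and CCAAT, on either strand, in capitals.
RIOK3 (chr18:23453187-23453286, plus strand): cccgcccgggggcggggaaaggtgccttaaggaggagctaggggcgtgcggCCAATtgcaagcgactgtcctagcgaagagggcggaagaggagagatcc
RIOK1 (chr6:7389708-7389807, plus strand): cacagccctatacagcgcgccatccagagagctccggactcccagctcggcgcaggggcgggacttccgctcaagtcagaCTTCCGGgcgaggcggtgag
RIOK2 (chr5:97183248-97183347, minus strand): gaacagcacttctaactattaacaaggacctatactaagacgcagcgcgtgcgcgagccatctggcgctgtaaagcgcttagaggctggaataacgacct
RIOK3 held CCAAT, RIOK1 held CCGGAAG on the opposite strand, and RIOK2 held neither in these 100 bases. RIOK3 also held CCGGAAG further out, at position -110, within the window used for the motif counts, so RIOK3 and RIOK1 both hold it there.

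Reads of overlapping genes or pseudogenes could not be separated from those of some of the 55 genes. Of the 55 genes, 16 have an annotated gene overlapping at least 10% of their exon bases, 11 have named pseudogenes, and 23 have either. Among the 32 with neither, 29 were higher, none was lower and 3, RCL1, RIOK1 and RIOK2, did not pass. Of all genes tested 32.7% were higher and 33.3% lower. All 4 lower genes are among the 23. RIOK3 has 1 named pseudogene, and a long noncoding RNA overlaps 20.4% of the NOB1 exon bases. TSR2 has FGD1, and IMP3 has SNX33, a long noncoding RNA over 20.3% of its exon bases and 2 named pseudogenes. Higher genes are among the 23 too: SERHL overlaps 33.9% of the RRP7A exon bases, NOXO1 30% for TBL3 and a same-strand gene 27.6% for LTV1. MPHOSPH10, not called, has 8 named pseudogenes. The split into 23 and 32 genes was made after the values were seen. FGD1 rose while TSR2 fell, and the part of shared reads in the differences of the 23 genes was not tested. In the authors' deposited table, 44 of the 55 genes were higher and 3 lower at an adjusted p below 0.05, where 29.0% and 30.1% of all genes were.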

How the data were processed

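RNA was measured in 6 SUM159 libraries, 3 of POGK cells and 3 of control cells, grouped by their titles. Total RNA was depleted of ribosomal RNA and reads were aligned to hg38, per the labels' protocols. Tools named in the submitters' processing notes include STAR and featureCounts. Their versions, the annotation and the strand setting are not given in sources used here. The authors deposited raw counts per Ensembl gene, a log2 fold change per gene, and an adjusted p-value whose tool is not stated. The authors' 6 normalized columns were not used. Genes are in the table from a total of 21 counts.

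The main test was edgeR 4.0.16's quasi-likelihood test in R 4.3.3, robust, with TMM scaling, the default low-count filter and Benjamini-Hochberg adjustment over 15889 genes. Standard errors were derived from its F statistic. CPM used TMM-scaled totals, and ratios per library used log2(CPM + 0.5). Reads per kilobase used union exon lengths of GENCODE 44. Member counts ran from 173 (LTV1) to 6157 (AATF) per library. Libraries were compared in pairs within each group. The closest pair, POGK replicates 2 and 3, had a chi-square statistic per gene of 1.36, and no threshold for sampling noise was set. The fit was tested on simulated data with 100 genes changed 2-fold and 100 changed 1.5-fold. It recovered 92% of the 2-fold and 62% of the 1.5-fold changes. The simulation gave each gene the same spread in both groups, whereas the control libraries here varied more than the POGK libraries.

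The members, gene lists, roles, motifs and RIO kinase ratios were chosen with earlier results of these data known. Genes given in full were those called lower, those not called, and for each role the one with the smallest adjusted p and the one with the largest difference, and for other lists the 2 with the smallest adjusted p. Alternatives were DESeq2 1.42.0, limma-voom (limma 3.58.1), other scalings and filters, removal of length and GC trends, a fit blocked on replicate number, and fits without 1 library.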

Additional observations from a re-analysis of the deposited data

How the results depend on the processing

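Of the 55 genes, 42 kept their direction and side of the threshold under all 15 alternatives. The number called higher ran from 41 to 46 and the median log2 fold change of the 55 genes from 0.56 to 0.84. Over all genes tested, the share called higher ran from 27.2% to 41.4% and the share called lower from 24.7% to 35.4%. The number called lower ran from 2 to 5 with 1 library left out, was 2 with library size alone and without POGK replicate 1 or 2, and stayed at 4 under DESeq2 and limma-voom. Signs near 0 reversed for RCL1 with library size alone (0.0255), for UTP23 with length and GC trends removed (-0.0598, and -0.0595 with the block), and for the log2 fold change of RIOK2 with library size alone (0.16), without POGK replicate 1 (0.00825) and without control replicate 2 (0.00189), with a range of -0.0514 to 0.00825 over fits without 1 library. Other processome genes called higher numbered 3 with length and GC trends removed, with or without the block, and 4 to 6 with 1 library left out. Those called lower numbered 1 with DESeq2-style size factors, library size alone, DESeq2 or no filter, and 1 to 3 with 1 library left out. The snoRNP core list had 0 to 1 lower with 1 library left out, and the 60S factors 2 lower with library size alone and 3 to 6 with 1 library left out. The E-box share of 40.8% was 16.3% in the 250 bases before the start and 24.5% in the first 50 bases, and the ATGGCGG share fell to 6.12% before the start. The RIOK3 ratios kept their sign, at -1.56 to -1.10 for RIOK1 and -1.21 to -0.996 for RIOK2. The causes were not tested.

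The replicate numbers are shared between groups, but same-numbered libraries deviated together only weakly, with correlations of 0.07, 0.03 and 0.004, so they are not taken as pairs. With the replicate block, 44 members were higher and 4 lower, where 32.3% of all genes tested were higher and 32.1% lower. No member changed its call. With 3 libraries per group and a wide spread among control libraries, small differences may be missed. The window of the first 50 bases and the count without overlapping genes or pseudogenes (29 higher, 0 lower of 32) were added after seeing the data.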
